A study of Mus musculus with 60 samples.

Results

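Transcript signals of Bmp4 and of 8 genes that BMP signalling is known to switch on were followed in 6 strains of undifferentiated mouse embryonal carcinoma cells. The 9 genes, Bmp4, Id1, Id2, Id3, Msx1, Msx2, Smad6, Smad7 and Bambi, were chosen by name, and their probe sets are those whose annotated symbol is exactly 1 of these names. They are 9 of the 18193 genes that have a probe set of their own on the arrays, and all 9 were among the 13181 genes tested. Embryonal carcinoma cells are the malignant stem cells of teratocarcinomas. The strains were P19, the P19 substrain P19CL6, and CL6G26, CL6G36, CL6G45 and CL6G52, which are sublines of P19CL6. All come from a male C3H mouse embryo, per the labels, and were grown in serum-containing medium with no inducer of differentiation named. Each strain had 5 biological replicates, each on both array types, MOE430A and MOE430B. The labels state neither what the sublines were derived for nor whether replicates came from separate cultures, and the p-values therefore cover the spread among these arrays, which may be technical.

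The labelled cell type was checked on Pou5f1, Nanog and Sox2, transcription factors that define pluripotent cells. Mean log2 signals lay between 11.24 and 11.59 for Pou5f1, between 7.66 and 8.76 for Nanog and between 8.60 and 8.97 for Sox2 in the 6 strains, against a background floor of 4.61. Array medians of the deposited signal were 30.2 to 53.4 for MOE430A and 10.6 to 16.5 for MOE430B. Some arrays stood apart from their strain on the first principal component of MOE430A. P19 replicates 4 and 5 lay at 13.6 and 12.2, inside the P19CL6 range of 1.69 to 13.8, whereas P19 replicates 1, 2 and 3 lay between 45.7 and 50.2. The array labelled CL6G52 replicate 1 lay at -22.3, inside the range of CL6G45, while the other CL6G52 arrays lay between 3.43 and 5.13. Where leaving these arrays out changed a call given in the text, both values are given. P19CL6 replicates 1 and 2 were also left out together. They lay at 3.81 and 1.69, and P19CL6 replicates 3, 4 and 5 between 11.6 and 13.8.

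BMP4 is a secreted ligand of the TGF-beta superfamily. It binds a complex of type I and type II serine/threonine kinase receptors, which phosphorylate SMAD1, SMAD5 and SMAD9, and these enter the nucleus with SMAD4. The Id genes are direct targets: their proteins lack a DNA-binding region and hold E proteins inactive. Msx1 and Msx2 encode homeobox repressors, and Smad6, Smad7 and Bambi encode inhibitors that the pathway induces against itself. In mouse pluripotent cells BMP4 and the Id proteins are known for holding back neural differentiation, and BMP4 is known for inducing mesoderm and extraembryonic fates.

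SMAD proteins bind short GC-rich and GTCT-type sequences, and the bases before the start of 3 target genes are shown here as a description. The RefSeq promoter table on GRCm38.p6 held no entry for Id1. A chromosome was left out when it was searched, so the other members without a window here may still be in it. Windows were taken for Bmp4, Id2, Id3, Msx1, Msx2 and Smad6. The windows of the 3 targets among these with the clearest differences follow, each the 250 bases upstream of the annotated start, 5′ to 3′ on the strand of the gene, with GGCGCC and GTCT in capitals on either strand (GTCT on the other strand reads AGAC). Id2 lies at chr12:25096093-25096342 on the minus strand, Id3 at chr4:136143572-136143821 on the plus strand and Msx1 at chr5:37824586-37824835 on the minus strand.
Id2: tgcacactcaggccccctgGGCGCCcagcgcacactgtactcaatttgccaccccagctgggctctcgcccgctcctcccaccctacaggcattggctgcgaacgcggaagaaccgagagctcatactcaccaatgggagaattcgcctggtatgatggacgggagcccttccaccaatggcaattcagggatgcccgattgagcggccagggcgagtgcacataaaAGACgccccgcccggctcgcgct
Id3: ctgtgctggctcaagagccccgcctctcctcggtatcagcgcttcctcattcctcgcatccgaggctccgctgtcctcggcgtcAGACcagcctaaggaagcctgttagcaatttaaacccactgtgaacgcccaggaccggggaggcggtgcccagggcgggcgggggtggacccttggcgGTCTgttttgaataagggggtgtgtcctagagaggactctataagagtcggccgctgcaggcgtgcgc
Msx1: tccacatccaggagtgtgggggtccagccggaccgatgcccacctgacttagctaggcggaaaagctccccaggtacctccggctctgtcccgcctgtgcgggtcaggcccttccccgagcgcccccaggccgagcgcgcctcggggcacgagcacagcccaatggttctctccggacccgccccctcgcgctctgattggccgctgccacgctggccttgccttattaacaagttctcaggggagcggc
The Id2 window held GGCGCC 231 bases before the start and GTCT on the opposite strand 23 bases before it. The Id3 window held GTCT 166 bases before the start on the opposite strand and 68 bases before it on the strand of the gene. The Msx1 window held neither, which says only that these letters are not in these bases. Over the 32851 windows of the table, 9.59% held GGCGCC and 82.9% held GTCT, so a GTCT match is usual. The matches are a description and were not tested as binding sites.

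The ligand itself was near the limit of detection. The log2 signals of Bmp4 (probe set 1422912_at) were 5.03, 5.07, 5.20, 4.87 and 4.84 in P19 and 4.93, 4.22, 4.89, 5.08 and 4.49 in P19CL6. The CL6G52 arrays read 4.29, 4.40, 4.94, 2.66 and 3.31. Of the 30 arrays, 22 lay above the floor of 4.61, among them all 5 of P19 and of CL6G45 but 1 of 5 in CL6G52. Mean levels were 5.00 ± 0.15 in P19, 4.97 ± 0.24 in CL6G45, 4.80 ± 0.24 in CL6G26, 4.74 ± 0.43 in CL6G36, 4.72 ± 0.36 in P19CL6 and 3.92 ± 0.92 in CL6G52 (SD, n = 5), and no neighbours in this order differed past the test. A gene is said here to pass a comparison when limma gave an adjusted p under 0.05, and values after ± with a difference are standard errors of the fit.

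Bmp4 passed in none of the comparisons of P19CL6 with P19 or of a subline with P19CL6. Its differences from P19CL6 in log2 signal were 0.08 ± 0.29 in CL6G26, 0.02 ± 0.29 in CL6G36 and 0.25 ± 0.29 in CL6G45, with 95% intervals of -0.52 to 0.67, -0.57 to 0.61 and -0.34 to 0.85. In CL6G52 the difference was -0.80 ± 0.29 (limma adjusted p = 0.112), and without its replicate 3 it was -1.06 (adjusted p = 0.0288). Against P19 directly, CL6G52 was lower by 1.08 ± 0.29 (limma adjusted p = 0.00981), and among the 4 sublines the means of Bmp4 spanned 1.05 (moderated F test in limma, adjusted p = 0.0207). With the deposited scaling neither passed (adjusted p = 0.117 and 0.0862). Both rest on arrays under the floor: with signals raised to the floor the difference from P19 was -0.32 (adjusted p = 0.0682) and the span among sublines 0.30 (adjusted p = 0.26), and without CL6G52 replicate 4 or 5 the span was 0.74 and 0.90 (adjusted p = 0.121 and 0.0925).

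**Figure D1:**
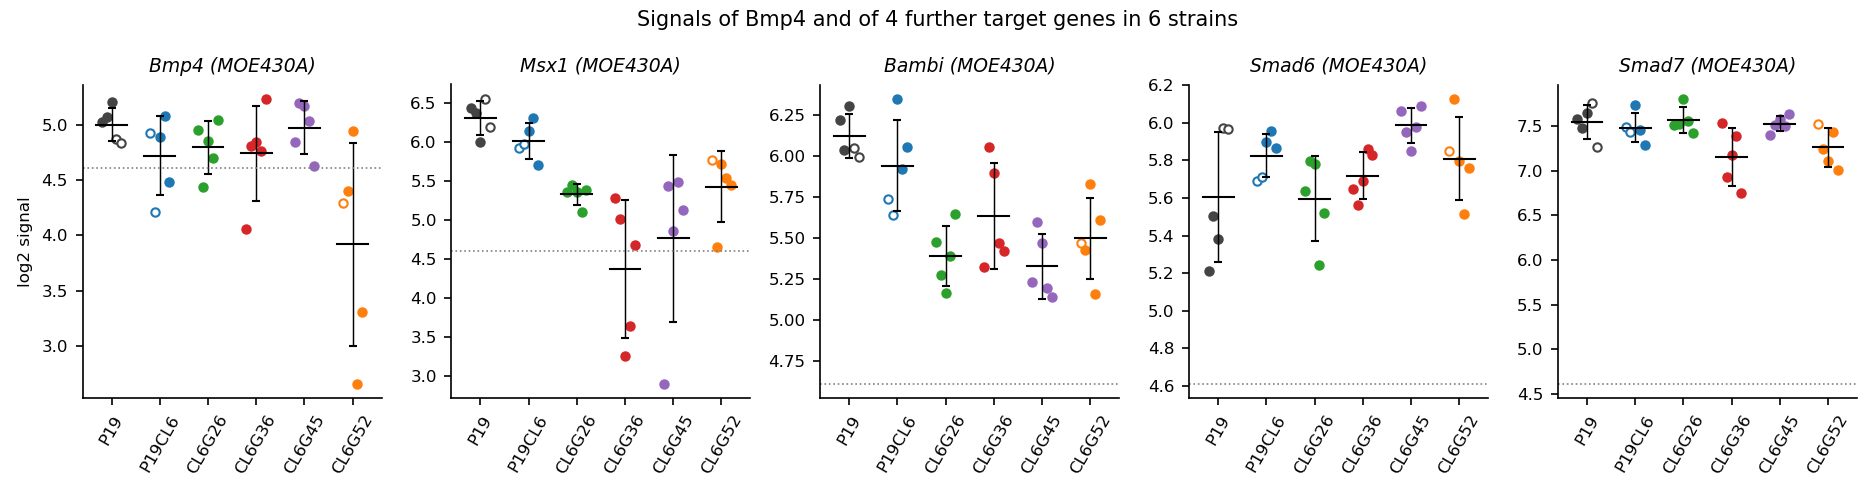
Log2 signal on MOE430A (y axis, own scale in each panel) of Bmp4, Msx1, Bambi, Smad6 and Smad7 in the 6 strains (x axis); each point is 1 array, the line is the mean and bars are the SD over 5 arrays, the dotted line is the background floor of 4.61, and open symbols mark P19 replicates 4 and 5, P19CL6 replicates 1 and 2 and CL6G52 replicate 1. Bmp4 lies near the floor in every strain, Msx1 falls towards it in CL6G36 and CL6G45, and Smad6 and Smad7 stay within narrow ranges.

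Id1, the target that passed in the most comparisons, was highest in P19, lower in P19CL6 and lower again in the sublines. Its log2 signals (1425895_a_at) were 8.25, 8.18, 8.26, 7.33 and 7.38 in P19 and 6.56, 6.55, 7.06, 7.16 and 7.13 in P19CL6. All P19 arrays were above all P19CL6 arrays, though P19 replicates 4 and 5 exceeded the highest P19CL6 array by little. P19CL6 was lower than P19 by 0.99 ± 0.21, a 1.98-fold difference (limma adjusted p = 0.0122). The call depended on which arrays were used. Without P19 replicates 4 and 5 the difference was -1.34 (adjusted p = 2.43e-05), without P19CL6 replicates 1 and 2 it was -0.76 (adjusted p = 0.102), and without P19 replicate 1, 2 or 3 the adjusted p was 0.0668, 0.0615 and 0.0687. It was 0.0514 with the deposited scaling of the arrays in place of quantile normalization, and 0.194 in a fit of only the P19 and P19CL6 arrays. The 3′ to 5′ signal ratio of Gapdh, a measure of RNA integrity and labelling, was 0.908 to 0.954 on the P19 arrays and 0.835 to 0.887 on the P19CL6 arrays of MOE430A. Its part in the difference was not tested.

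In the sublines Id1 read 5.80, 6.11, 6.11, 6.06 and 6.28 in CL6G26, and 5.68, 6.23, 5.93, 5.54 and 5.95 in CL6G36. It read 6.06, 5.98, 4.90, 5.21 and 5.56 in CL6G45, and 5.65, 6.43, 6.44, 6.31 and 6.43 in CL6G52. Every one of these 20 arrays lay below the lowest P19CL6 array, so the groups did not overlap in any subline. The differences from P19CL6, which all share the same 5 control arrays, were -0.82 ± 0.21 in CL6G26 (1.77-fold, limma adjusted p = 0.0377), -1.03 ± 0.21 in CL6G36 (2.04-fold, 0.000813), -1.35 ± 0.21 in CL6G45 (2.55-fold, 3.58e-05) and -0.64 ± 0.21 in CL6G52 (1.56-fold, 0.0812). Thus Id1 passed as lower in CL6G26, CL6G36 and CL6G45.

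The CL6G26 call was near the threshold. Without any 1 of P19CL6 replicates 3, 4 and 5 or CL6G26 replicates 1, 2, 3 and 4, its adjusted p rose to between 0.0662 and 0.114, and it was 0.344 with the deposited scaling, 0.0621 with no filter and 0.0581 with no trend. In CL6G52 the difference was -0.49 (adjusted p = 0.177) without replicate 1 and -0.86 (adjusted p = 0.0382) without P19CL6 replicates 1 and 2. Those P19CL6 replicates had the lowest Id1 signals of their strain, so leaving them out raised its mean. Against the P19 arrays the differences of Id1 were -1.81 in CL6G26, -2.01 in CL6G36, -2.34 in CL6G45 and -1.63 in CL6G52 on the log2 scale, each ± 0.21, or between 3.09-fold and 5.05-fold (limma adjusted p between 2.29e-09 and 5.54e-06). In order of level the strains ran P19, P19CL6, CL6G52, CL6G26, CL6G36, CL6G45, at 7.88 ± 0.48, 6.89 ± 0.31, 6.25 ± 0.34, 6.07 ± 0.17, 5.87 ± 0.27 and 5.54 ± 0.50 (SD, n = 5). Of the neighbours in this order, P19 and P19CL6 differed past the test. CL6G52 and CL6G45, at the ends of the subline order, differed by 0.71 ± 0.21 (limma adjusted p = 0.0218, in a comparison where 11.1% of all genes passed). That call was lost without CL6G45 replicate 3 or 4 or CL6G52 replicate 2, 3 or 5 (adjusted p between 0.0576 and 0.0893), with the deposited scaling (0.206) and with only these strains in the fit (0.0565). Over all 4 sublines the span of 0.71 had an adjusted p of 0.0501 in the moderated F test, and without CL6G52 replicate 1 the span was 0.86 (adjusted p = 0.0128).

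Id2, whose protein acts like that of Id1 on E proteins, was detected in P19 and most P19CL6 arrays and lay under the floor in CL6G26, CL6G36 and CL6G45. Its log2 signals (1435176_a_at) were 5.80, 5.33, 5.73, 5.22 and 5.59 in P19 and 4.84, 4.95, 5.45, 5.15 and 4.23 in P19CL6. All 15 arrays of CL6G26, CL6G36 and CL6G45 read between 2.73 and 4.47, below the floor. In CL6G52 the arrays read 0.00, 4.81, 4.71, 5.03 and 4.37, and the zero belongs to replicate 1, the array that stood apart. Among the 4 sublines Id2 did not pass with all arrays (moderated F adjusted p = 0.808), but without this array it did, with a span of 1.3 (adjusted p = 0.00185). CL6G52 was then higher than CL6G36 by 1.3 and than CL6G45 by 1.05 (adjusted p = 0.000576 and 0.00503), with both of those strains under the floor. Against P19 Id2 was lower in CL6G52 by 1.75 ± 0.55 (adjusted p = 0.0272), and without this array by 0.81 (adjusted p = 0.0407). The CL6G52 call was lost without P19 replicate 1 or 3 (limma adjusted p = 0.0634 and 0.0617). It was also lost with the deposited scaling (0.117) and with only these strains in the fit (0.194). Id2 was at least 1.90-fold lower in CL6G36 and CL6G45 than in P19, counted from the P19 mean to the floor (limma adjusted p = 0.00334 and 0.0094). In CL6G26, also under the floor on every array, the difference from P19 was -1.49 and did not pass (adjusted p = 0.0704). It passed with signals raised to the floor (2.55e-06), with only these strains in the fit (0.00257) and with the mean of the Id2 probe sets (0.0239). In P19CL6 against P19 the difference was -0.61 ± 0.55 (adjusted p = 0.559), and with signals raised to the floor it was -0.53 and passed (adjusted p = 0.0113).

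Against P19CL6 the same probe set did not pass with all 6 strains in the fit. The bound was at least 1.24-fold, with limma adjusted p of 0.571 in CL6G26, 0.056 in CL6G36 and 0.122 in CL6G45. Another Id2 probe set, 1422537_a_at, was above the floor on 7 of 30 arrays and passed as lower in CL6G36 (-2.41 ± 0.61, adjusted p = 0.00511) and in CL6G45 (-2.43 ± 0.61, 0.00514), on values mostly under the floor. With signals raised to the floor the first probe set also passed, with a difference of -0.39 in both (adjusted p = 0.0164 and 0.0179). It passed too in CL6G36 and CL6G45 with only the strains compared in the fit (limma adjusted p = 0.00392 and 0.00542). That fit leaves out CL6G52, whose Id2 signals had an SD of 2.13. With the mean of the Id2 probe sets the adjusted p was 0.0055 and 0.00919. In CL6G26 no alternative passed.

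Id3, the Id gene with the steadiest signal, differed by less but with little spread. Its log2 signals (1416630_at) were 7.66, 7.90, 7.77, 7.59 and 7.63 in P19CL6, 6.89, 7.32, 7.03, 6.80 and 6.91 in CL6G36, and 7.20, 7.33, 7.04, 7.36 and 7.29 in CL6G52. All CL6G36 and CL6G52 arrays lay below all P19CL6 arrays. Id3 was lower by 0.72 ± 0.09 in CL6G36 (1.65-fold, limma adjusted p = 1.69e-06) and by 0.47 ± 0.09 in CL6G52 (1.38-fold, 0.00279), and the CL6G52 difference was -0.46 (adjusted p = 0.00514) without replicate 1. With the deposited scaling the CL6G52 difference was -0.42 (adjusted p = 0.605).

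In CL6G26 and CL6G45 the Id3 arrays also lay below those of P19CL6, but the differences of -0.33 ± 0.09 and -0.24 ± 0.09 did not pass (limma adjusted p = 0.0719 and 0.0765). P19 and P19CL6 differed by 0.14 ± 0.09 in the other direction from Id1, with an adjusted p of 0.412 and an interval of -0.06 to 0.33. Id3 differed among the 4 sublines (span 0.48, moderated F adjusted p = 0.00117), and CL6G36 was lower than CL6G26 by 0.40 ± 0.09 (adjusted p = 0.00321) and than CL6G45 by 0.48 ± 0.09 (adjusted p = 0.00199), where 14.1% and 3% of all genes passed. With the deposited scaling the adjusted p of Id3 was 0.112 among the sublines and 0.055 and 0.311 in these pairs. CL6G52, the subline next to CL6G36 in level, was higher than it by 0.25 ± 0.09, which did not pass (adjusted p = 0.065). Against P19, Id3 was lower in CL6G52 by 0.33 ± 0.09 (adjusted p = 0.0156), but without P19 replicates 4 and 5 the difference was -0.24 (adjusted p = 0.0867). The call was also lost without CL6G52 replicate 3 (limma adjusted p = 0.0536), with the deposited scaling (0.591) and with only these strains in the fit (0.0875). In CL6G36 the Id3 difference from P19 was -0.58 (adjusted p = 1.75e-05), and with the deposited scaling -0.49 (0.0802).

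**Figure D2:**
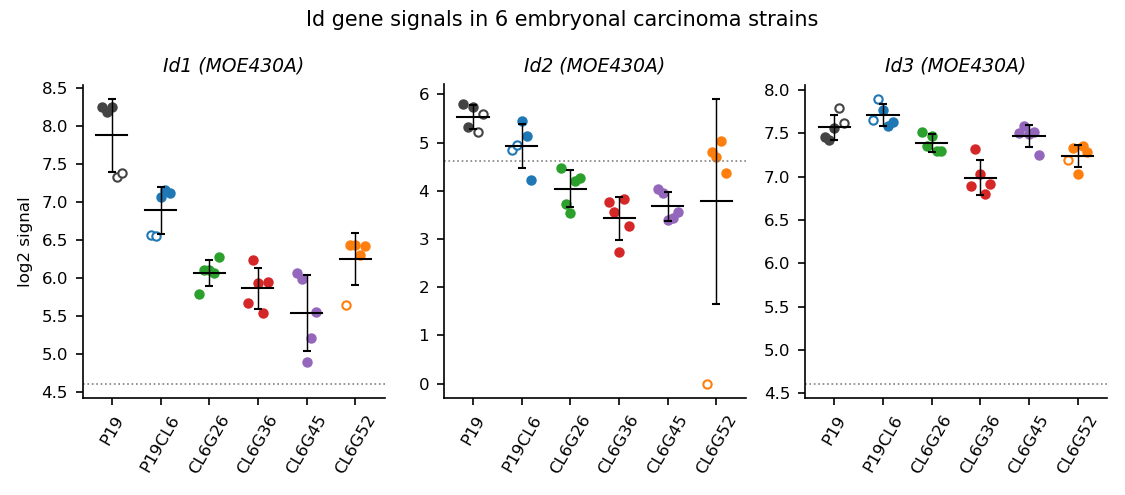
Log2 signal on MOE430A (y axis, own scale in each panel) of Id1, Id2 and Id3 in the 6 strains (x axis); each point is 1 array, the line is the mean, bars are the SD over 5 arrays, the dotted line is the background floor of 4.61, and open symbols mark P19 replicates 4 and 5, P19CL6 replicates 1 and 2 and CL6G52 replicate 1. All 20 subline arrays of Id1 lie under the lowest P19CL6 array, Id2 lies under the floor in CL6G26, CL6G36 and CL6G45, and Id3 is lowest in CL6G36.

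Msx1 encodes a homeobox repressor and is a target of BMP signalling in many embryonic tissues. Its log2 signals (1448601_s_at) were 6.43, 6.37, 6.0, 6.55 and 6.19 in P19 and 5.93, 5.98, 6.15, 6.31 and 5.71 in P19CL6. They were 5.29, 5.02, 3.26, 3.64 and 4.68 in CL6G36 and 2.91, 5.44, 4.86, 5.49 and 5.13 in CL6G45. The arrays of both sublines lay below those of P19CL6, and 2 of 5 in CL6G36 and 1 of 5 in CL6G45 were under the floor. Msx1 was lower than in P19CL6 by 1.64 ± 0.35 in CL6G36 (3.11-fold, limma adjusted p = 0.00122) and by 1.25 ± 0.35 in CL6G45 (2.38-fold, 0.0132). The CL6G36 mean of 4.38 lies under the floor, so these sizes reach into background: with signals raised to the floor the differences were -1.17 and -0.91, and with the mean of the Msx1 probe sets that of CL6G36 was -0.98 (adjusted p = 0.00516).

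In CL6G45 the lowest array, replicate 1, carried much of the size of this difference: without it Msx1 was lower by 0.78 (limma adjusted p = 0.0583). The adjusted p was 0.0758 with the deposited scaling and 0.0507 with the mean of the Msx1 probe sets. In CL6G26 the arrays, at 5.10 to 5.44, also lay below those of P19CL6 with no overlap, and the difference of -0.69 ± 0.35 did not pass (adjusted p = 0.449). That fit shares its spread over all strains, and the SD was 0.13 in CL6G26 and 0.23 in P19CL6 but 0.88 in CL6G36 and 1.07 in CL6G45. Of 21 alternatives 2 passed: only the strains compared in the fit (limma adjusted p = 0.011) and signals raised to the floor (0.0467). The second Msx1 probe set could not decide these differences from P19CL6. In P19CL6 its mean of 4.47 already lay under the floor of 4.61, with 2 of 5 arrays above it. For 1417127_at, above the floor on 15 of 30 arrays, CL6G36 differed from P19CL6 by -0.33 ± 0.28 (adjusted p = 0.481) and CL6G45 by -0.13 ± 0.28 (adjusted p = 0.819). Against P19 it was lower in CL6G36 by 0.90 ± 0.28 (adjusted p = 0.0146). A probe set ending in _s_at can match more than a single transcript, and the Msx1 result against P19CL6 rests on such a probe set. The other probe set neither bears that result out nor counts against it. Msx2, the related homeobox gene, could not be followed: its probe set 1438351_at was above the MOE430B floor of 4.14 on 5 of 30 arrays, and 1449559_at on none.

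Smad6 and Smad7 encode the inhibitory SMADs and, on the probe sets read for them, were detected on all 30 arrays with small differences. Another Smad7 probe set, 1443771_x_at, was above the MOE430B floor of 4.14 on 5 of 30 arrays. Its means ran from 2.87 in P19CL6 to 4.22 in CL6G26, with 3.73 in CL6G36, and did not pass among the 6 strains (moderated F adjusted p = 0.386). Smad7 (1423389_at) had means between 7.16 and 7.57, and its largest difference from P19CL6 was -0.32 ± 0.12 in CL6G36 (limma adjusted p = 0.0664, interval -0.58 to -0.07). With the replicate number as a block this difference passed (adjusted p = 0.0359), but the numbers do not pair the samples; it also passed without CL6G36 replicate 1 (-0.42, adjusted p = 0.0167) or 4 (-0.38, 0.0401). Among the sublines Smad7 spanned 0.41 (moderated F adjusted p = 0.0213), with CL6G36 lower than CL6G26 by 0.41 ± 0.12 (adjusted p = 0.0186). That pair was at an adjusted p of 0.0595 without CL6G26 replicate 3, 0.0612 and 0.0811 without CL6G36 replicate 2 or 5, and 0.0507 with the deposited scaling. The F test no longer passed without CL6G36 replicate 2 or 5 (adjusted p = 0.054 and 0.0551) or with the deposited scaling (0.116). Against P19, Smad7 was lower in CL6G36 by 0.39 (limma adjusted p = 0.0145), where 26.1% of all genes passed. That call was lost without CL6G36 replicate 2 or 5 (limma adjusted p = 0.0504 and 0.0699). It was also lost with the deposited scaling (0.323) and with only these strains in the fit (0.07).

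Smad6 (1422771_at) had means between 5.60 and 5.99. It passed in none of the 5 main comparisons, and its differences from P19CL6 ran from -0.23 in CL6G26 to 0.16 in CL6G45. In P19 its replicates 1, 2 and 3 read 5.21, 5.50 and 5.38, and replicates 4 and 5 both read 5.97, just above the P19CL6 range of 5.69 to 5.96. Without P19 replicates 4 and 5, P19CL6 was higher than P19 by 0.46 (limma adjusted p = 0.0126), against 0.22 ± 0.14 (adjusted p = 0.369) with all arrays; CL6G36 and CL6G52 then also passed as higher than P19, by 0.35 and 0.45 (adjusted p = 0.0394 and 0.0141). CL6G45 was higher than P19 by 0.38 ± 0.14 (adjusted p = 0.0326) and higher than CL6G26 by 0.39 ± 0.14 (adjusted p = 0.048, all genes 13.2%). The first was lost without P19 replicate 1, 2 or 3 or CL6G45 replicate 1 or 5 (adjusted p between 0.0654 and 0.131). The second was lost without CL6G26 replicate 1, 4 or 5 or any 1 CL6G45 array (between 0.0506 and 0.155), with the deposited scaling (0.377), with no filter (0.0793), with a robust variance fit (0.0508) and with the replicate number as a block (0.0628). The first was also lost with no filter (0.0544) and with only these strains in the fit (0.093).

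Bambi encodes a receptor-like protein without a kinase that blocks BMP and TGF-beta receptors. Its log2 signals (1423753_at) were 6.22, 6.03, 6.31, 6.05 and 5.99 in P19, 5.74, 5.64, 6.35, 5.92 and 6.06 in P19CL6, and 5.23, 5.60, 5.47, 5.20 and 5.14 in CL6G45. The CL6G45 arrays lay below all P19CL6 arrays. Bambi was lower than in P19CL6 by 0.61 ± 0.15 in CL6G45 (1.53-fold, limma adjusted p = 0.00509), and with the deposited scaling by 0.45 (adjusted p = 0.307).

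In the other sublines Bambi differed from P19CL6 by -0.55 ± 0.15 in CL6G26 (limma adjusted p = 0.0584), -0.44 ± 0.15 in CL6G52 (0.0966) and -0.31 ± 0.15 in CL6G36 (0.173). Without P19CL6 replicate 2 the CL6G26 difference passed, at -0.63 (adjusted p = 0.0327). Without P19CL6 replicates 1 and 2, whose Bambi signals were the lowest of that strain, the CL6G26 and CL6G52 differences passed at -0.72 (adjusted p = 0.0199) and -0.61 (adjusted p = 0.0398). Leaving out the lowest arrays raised the P19CL6 mean, which by itself makes these differences larger. With all arrays kept, the CL6G26 difference also passed narrowly with trimmed mean scaling (limma adjusted p = 0.0474), signals raised to the floor (0.0495) and the mean of probe sets (0.0478). In all, 5 of its 21 alternatives passed. Against P19, Bambi was lower in all 4 sublines, by 0.49 to 0.79 (adjusted p between 0.000173 and 0.0135), and none of these passed with the deposited scaling (0.093 to 0.312). The interval of the difference between P19CL6 and P19 was -0.49 to 0.14.

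Counted together, 1 of 9 members passed in P19CL6 against P19, where 4.46% of all 13181 genes passed, 2.57% as higher and 1.89% as lower. The 588 genes behind that share became 2588 without P19 replicates 4 and 5, 10 without P19CL6 replicates 1 and 2, and 0 by limma without P19 replicate 1, 2 or 3, where 1945, 1992 and 1918 genes had an unadjusted p under 0.05, against 2617 with all arrays. Against P19CL6, 1 of 9 passed in CL6G26 (all genes 1.24%), 3 of 9 in CL6G36 (13.5%), 3 of 9 in CL6G45 (13.3%) and 1 of 9 in CL6G52 (3.18%). Every member that passed was lower in the first-named strain, and 0 of 9 passed as higher. Among all genes 0.417%, 6.83%, 6.55% and 1.38% passed as higher and 0.827%, 6.72%, 6.71% and 1.8% as lower in CL6G26, CL6G36, CL6G45 and CL6G52. With the deposited scaling the share of calls that were lower fell to 18.8% from 42.3% in P19CL6 against P19, to 33.2% from 50.6% in CL6G45 and to 21.1% from 56.6% in CL6G52.

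The median difference of the 9 members was -0.18 in P19CL6 against P19, and -0.33, -0.32, -0.24 and -0.47 in CL6G26, CL6G36, CL6G45 and CL6G52 against P19CL6, while the median of all genes lay between -0.01 and 0.01. Arrays that did not overlap were found for 1, 3, 4, 5 and 2 members in the 5 comparisons, against 2.23%, 4.15%, 12.3%, 13.7% and 4.89% of all genes. With P19 as the control, 2 of 9 passed in CL6G26 (all genes 9.81%), 6 in CL6G36 (26.1%), 5 in CL6G45 (25.7%) and 5 in CL6G52 (11.4%), all lower but Smad6 in CL6G45. Of all genes 5.19%, 12.4%, 12.4% and 5.82% were lower than in P19 in these comparisons, and 13.2% were higher in CL6G45. The moderated F test called 3 of 9 members among the 4 sublines (all genes 23.2%) and 7 of 9 among the 6 strains (35%), the exceptions to the latter being Msx2 and Smad6. In bulk samples such as these, fewer cells of a type and less RNA per cell cannot be told apart.

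**Figure D3:**
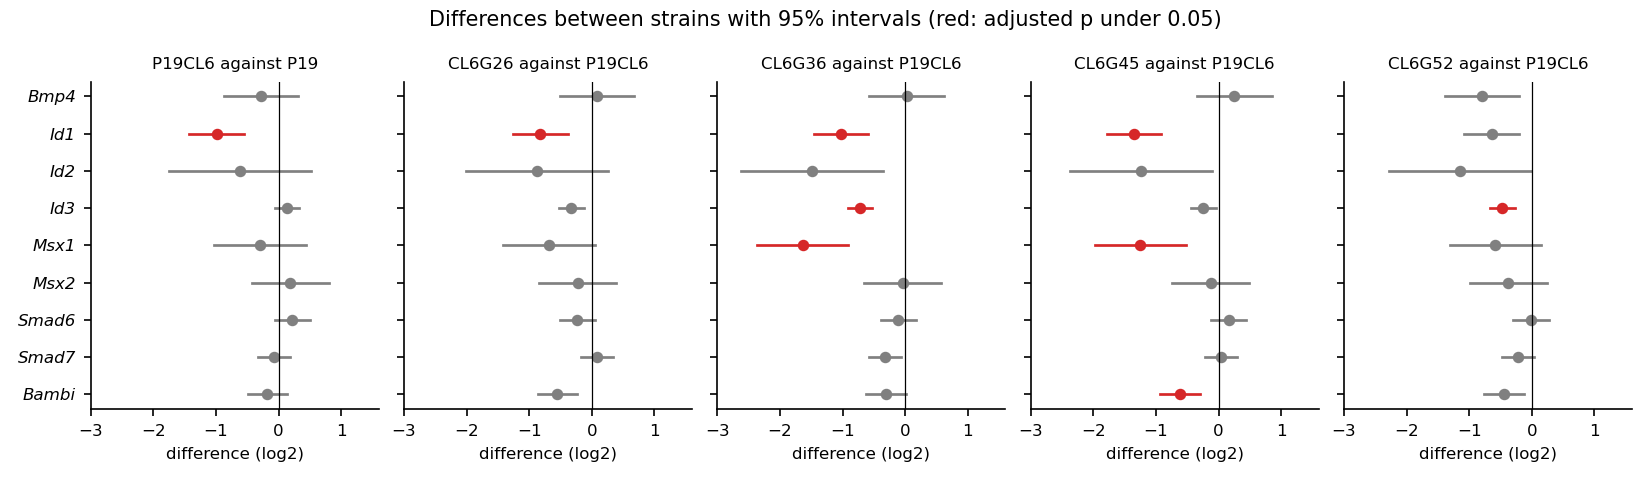
Differences in log2 signal (x axis) of the 9 genes (y axis) in P19CL6 against P19 and in each subline against P19CL6; points are the fitted differences, bars their 95% intervals, and red marks an adjusted p under 0.05. Id1 is red in 4 panels, its largest difference being -1.35 in CL6G45; Id3 is red in CL6G36 and CL6G52, Msx1 in CL6G36 and CL6G45, and Bambi in CL6G45.

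The rest of the pathway was read from 6 lists of 98 symbols, of which 64 were tested; Hfe2 and Tcfe2a are older names of listed genes. Of the 64 genes, 6.25% passed in P19CL6 against P19, where 4.46% of all genes did. Against P19CL6 the shares were 4.69% in CL6G26 (all genes 1.24%), 14.1% in CL6G36 (13.5%), 17.2% in CL6G45 (13.3%) and 6.25% in CL6G52 (3.18%), and 3 of 3, 8 of 9, 7 of 11 and 4 of 4 of the genes that passed were lower. The genes that passed in P19CL6 against P19, Gdf3, Zfp423, Gata3 and Hes5, no longer did without P19 replicate 1, 2 or 3 or with only these strains in the fit, where no gene at all passed. Of the other ligands 6 of 14 were tested. Gdf3, a Nodal-like and BMP-modulating ligand, was lower in P19CL6 than in P19 by 0.81 ± 0.18 (limma adjusted p = 0.0125), and no ligand passed in a subline.

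Of the receptors and co-receptors 11 of 12 were tested and 1 passed in 1 comparison: Rgma, a BMP co-receptor, was lower in CL6G45 by 0.84 ± 0.21 (limma adjusted p = 0.0267). Bmpr1a, the type I receptor for BMP4, had means between 7.86 and 8.17 in the 6 strains and passed in none. Of the transducers and their regulators 16 of 17 were tested. Smad1, a transducer of BMP signals, was lower in CL6G36 by 0.61 ± 0.09 (adjusted p = 1.03e-05), where the arrays read 7.23 to 7.63 against 8.0 to 8.17 in P19CL6 with no overlap. In P19CL6 against P19 the SMAD partner Zfp423 was higher by 0.54 ± 0.15 (adjusted p = 0.0349). In CL6G45 3 genes of this list were higher: Smad4, the common partner, by 0.24 ± 0.07, the corepressor Skil by 0.37 ± 0.12 and the ubiquitin ligase Nedd4l by 0.54 ± 0.18 (adjusted p = 0.0148, 0.0279 and 0.032).

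Among the extracellular antagonists, 9 of 20 tested, Fst had the largest difference of the pathway genes that passed and were detected on all 30 arrays. Fst encodes follistatin, a secreted protein that binds activins and some BMPs. Its log2 signal was 9.46 to 10.44 on the P19CL6 arrays, 9.10 to 9.27 in CL6G26, 6.58 to 7.33 in CL6G36, 7.0 to 7.43 in CL6G45 and 6.95 to 7.48 in CL6G52. No subline overlapped with P19CL6. Fst was lower by 0.78 ± 0.19 in CL6G26 (limma adjusted p = 0.0271), and the differences were -2.99, -2.77 and -2.84, each ± 0.19, in CL6G36, CL6G45 and CL6G52 (adjusted p at most 5.71e-11). Cer1, another secreted antagonist, passed as lower in CL6G36 and CL6G45, but it was above the floor on 3 of 5 P19CL6 arrays and on none in those sublines, and with signals raised to the floor the difference was -0.21 in both. Fstl1 was higher in CL6G36 by 0.23 ± 0.08 (adjusted p = 0.0368).

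Of 16 tested among 23 further BMP-responsive genes, 1 passed as lower in CL6G26, 3 in CL6G36, 4 in CL6G45 and 3 in CL6G52, against 0.827%, 6.72%, 6.71% and 1.8% of all genes, and none as higher in a subline. In P19CL6 against P19, Gata3 passed as higher, by 1.96 ± 0.54 (limma adjusted p = 0.0323) and by 0.30 with signals raised to the floor. Prdm1, a repressor needed for germ cell specification, was lower by 1.07 ± 0.20 in CL6G26, 1.36 ± 0.20 in CL6G36 and 1.02 ± 0.20 in CL6G52 (limma adjusted p = 0.00218, 1.44e-05 and 0.00279). In CL6G45 its mean of 5.76 was close to the 5.92 of P19CL6. Hes1, a bHLH repressor also driven by Notch, was lower in CL6G36, CL6G45 and CL6G52 by 0.77, 0.55 and 0.81, each ± 0.13. Cdx2 was under the floor on every array of these 3 sublines and above it on 3 of 5 in P19CL6, so it was at least 1.31-fold lower. Tbx3 and Sp7 passed as lower in CL6G45, by 0.66 and 0.78 (adjusted p = 0.0479 and 0.0184), and Tbx3 by 0.38 with signals raised to the floor.

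The partners of the Id proteins are the E proteins and other HLH factors, of which 6 of 12 were tested. Tcf3, which encodes the E proteins E12 and E47, was lower in CL6G26 by 0.45 ± 0.08 and in CL6G36 by 0.70 ± 0.08 (limma adjusted p = 0.00136 and 2.5e-07). Tcf4 was lower in CL6G36 by 0.50 ± 0.11 (adjusted p = 0.0021), and Tcf12 was higher in CL6G45 by 0.43 ± 0.11 (adjusted p = 0.00571). In P19CL6 against P19 the HLH repressor Hes5 was higher, by 1.92 ± 0.49 (adjusted p = 0.0207) and by 0.82 with signals raised to the floor.

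**Figure D4:**
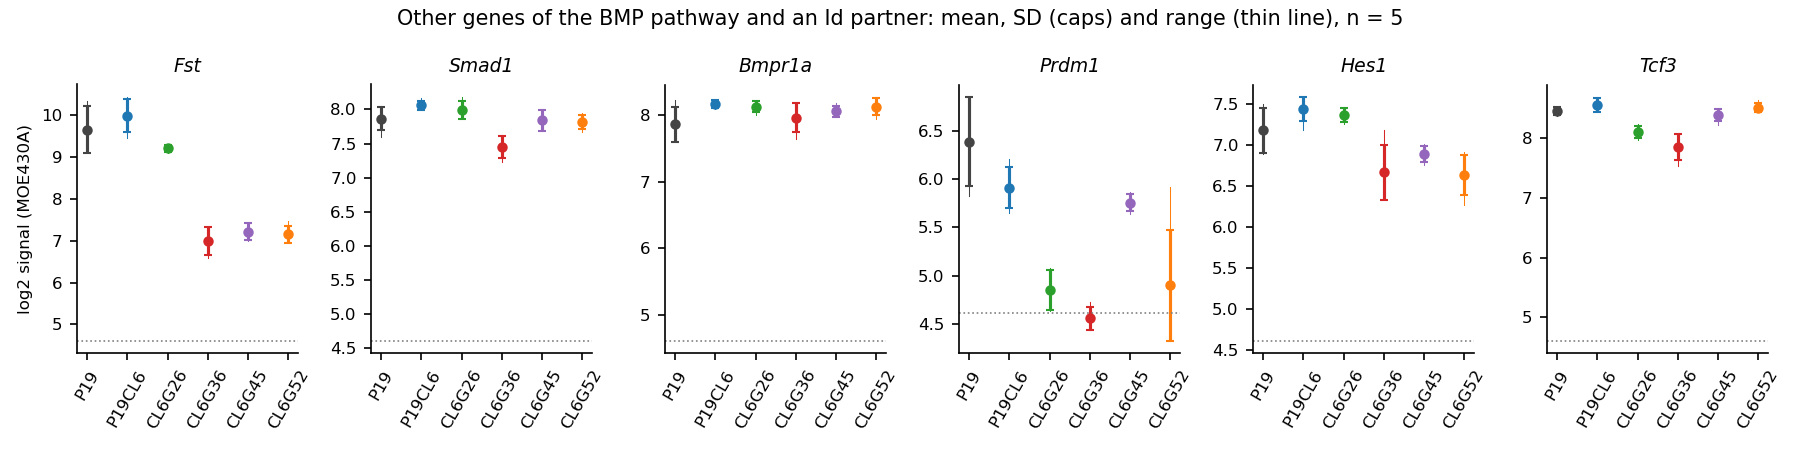
Log2 signal on MOE430A (y axis, own scale in each panel) of Fst, Smad1, Bmpr1a, Prdm1, Hes1 and Tcf3 in the 6 strains (x axis); points are means, capped bars the SD and thin lines the range over 5 arrays, and the dotted line is the background floor of 4.61. Fst is at 9.21 in CL6G26 and between 6.99 and 7.21 in the other sublines, Smad1 is lowest in CL6G36, and Bmpr1a lies between 7.86 and 8.17.

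Markers of other cell types were read on the same arrays. Of 8 trophoblast markers 6 were tested, and 4 of them (Cdx2, Eomes, Krt8 and Krt18) passed as lower in each of CL6G36, CL6G45 and CL6G52 against P19CL6. Their summed linear signal was 973 to 1338 in P19CL6, 825 to 865 in CL6G26, 548 to 641 in CL6G36, 521 to 623 in CL6G45 and 464 to 661 in CL6G52; Elf5 and Tfap2c did not reach the floor on enough arrays to be tested. Cdx2, Gata3, Hand1 and Tfap2c stand on this list and on that of the BMP-responsive genes. Of 8 mesoderm markers Mixl1 was lower in the same 3 sublines, and the summed signal was 270 to 385 in P19CL6, 270 to 320 in CL6G26, 181 to 233 in CL6G36, 195 to 220 in CL6G45 and 194 to 292 in CL6G52, the last overlapping with P19CL6. Of 5 primitive endoderm markers tested, Foxa2 was lower in these 3 sublines, with differences of -1.99, -1.38 and -1.89, each ± 0.18, and Gata6 in CL6G36 and CL6G45, by 0.69 and 0.60, each ± 0.19. Their summed signal was 1138 to 1477 in P19CL6, 1330 to 1484 in CL6G36, 982 to 1139 in CL6G45 and 1099 to 1657 in CL6G52. Among 9 tested pluripotency markers Nanog was lower by 1.10, 1.02 and 0.66, each ± 0.12, in CL6G36, CL6G45 and CL6G52, and Tdgf1 was lower in the same sublines by 0.37, 0.35 and 0.54, each ± 0.10. Others of that list were higher: Utf1 by 0.55 ± 0.10 in CL6G36 and 0.68 ± 0.10 in CL6G45, and Dnmt3b by 0.38 ± 0.10 in CL6G45. In CL6G26, where Id1 passed as lower, Krt8 alone passed among the markers of these lists, as lower by 0.80 ± 0.14. In P19CL6 against P19, where Id1 also passed as lower, Gata3 of the trophoblast list passed as higher and Col1a2 of the fibroblast list as lower, by 0.73 ± 0.16. The summed signal of the 3 fibroblast markers on MOE430A was 166 to 352 in P19 and 171 to 196 in P19CL6. No neural marker of 4 tested passed in any of the 5 comparisons. The part of the markers in the members' differences was not tested.

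As a description of likeness, the genes whose signals most resembled each member over the 30 MOE430A arrays were listed by Pearson's r; arrays of a strain cluster, and all share the normalization. For Id1 they were Anapc11 (0.905), Car3 (0.905), Cited2 (0.905) and Phlda2 (0.897), and after removing strain means r was 0.672, 0.632, 0.464 and 0.746. Cited2 was also the closest to Bambi (0.829). For Id2 the closest was Chst7 (0.851), for Id3 Kit (0.817), for Msx1 Ywhab (0.785), for Smad7 Nqo1 (0.699) and for Bmp4 Acrbp (0.709). Between members, after removing strain means, Id1 had r of 0.408 with Id2, 0.395 with Bambi, -0.194 with Msx1 and 0.0949 with Bmp4, while the strain means of Id1 and Msx1 had r of 0.896 (n = 6).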

How the data were processed

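Total RNA was amplified, biotin-labelled and hybridised to 60 Affymetrix arrays, 30 of MOE430A and 30 of MOE430B. Per the submitters' processing notes the values are GCOS signals, with no version given. The authors deposited them as a linear intensity per probe set, with a scaling target not given in the sources used here. All 64 controls of an array type were dropped. Of the other probe sets, the annotation gave 1 symbol to 20380 probe sets on MOE430A and 14661 on MOE430B, several to 691 and 245, and none to 1555 and 7605; a gene was named where a probe set had 1 symbol. Arrays of a type were quantile normalized, and log2 was taken after raising signals under 1 to 1. The floor was the 40th percentile of each MOE430A array and the 60th of each MOE430B array, and a probe set was tested if above it on at least 5 of 30 arrays. This left 15068 and 12131 probe sets, and 8906 and 4275 genes. Each gene took its value from its tested probe set with the highest mean, with the x_at kind last and MOE430A first.

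Tests were two-sided, with limma version 3.58.1 in R version 4.3.3: a mean per strain over all 6 strains (24 residual degrees of freedom), eBayes with a trend, with p-values adjusted by Benjamini-Hochberg across an array type in every comparison. Intervals of differences use these 24 degrees. The script was tested on simulated data. The 5 main comparisons were P19CL6 against P19 and each subline against P19CL6, which share the P19CL6 arrays; all 15 pairs and F tests over the 4 sublines and 6 strains were also fitted. Where every array of a group lay under the floor, the fold is a bound, the brighter mean against the floor. The number of arrays limits the precision.

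The 9 members, the gene lists and the arrays to leave out were chosen with earlier results of these data known. All members were named, as were pathway genes that passed (up to the 4 smallest adjusted p per list and comparison), the 4 genes most like each member, and Pou5f1, Nanog and Sox2. The alternatives were other scalings, filters, probe set rules, variance settings and sets of arrays. The replicate numbers do not pair the samples: over 75 same-numbered array pairs of MOE430A, correlations of deviations from strain means ran from -0.154 to 0.112, and 1 was over 0.1.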

Additional observations from a re-analysis of the deposited data

Results flagged for a closer look

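In 54 groups of 5 arrays, 6 held an array whose gap to its neighbour exceeded Dixon's critical value of 0.71 of the range, where chance gives about 1 in 20 groups. CL6G52 replicate 1, which stood apart on all genes, was low for Id1, at a log2 signal of 5.65 against 6.31 to 6.44 on the other arrays of its strain, and for Id2, at 0 against 4.37 to 5.03. Msx1 had a low array in 3 sublines: CL6G45 replicate 1 at 2.91 against 4.86 to 5.49, CL6G52 replicate 2 at 4.66 against 5.45 to 5.77, and CL6G26 replicate 4 at 5.10 against 5.36 to 5.44. CL6G45 replicate 5 read 7.25 for Id3 against 7.49 to 7.59.

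The effect of being a subline differed between the 4 sublines, by the moderated F test in limma, for 3 of 9 members, where 23.2% of all genes passed. Their subline means spanned 1.05 for Bmp4, 0.48 for Id3 and 0.41 for Smad7 on the log2 scale (adjusted p = 0.0207, 0.00117 and 0.0213). With signals raised to the floor the Bmp4 span was 0.30 (adjusted p = 0.26 in the same test). With the deposited scaling none of these 3 members passed. The lowest mean was that of CL6G52 for Bmp4 and of CL6G36 for Id3 and Smad7, but CL6G36 did not differ past the test from CL6G52 for Id3 (0.25, adjusted p = 0.065) or Smad7 (0.10, adjusted p = 0.637).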

How the results depend on the processing

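Of 45 member results in the 5 comparisons 9 passed, and 169 of their 190 alternatives still passed; 23 of 754 alternatives of the others passed, and no called difference changed sign. With the deposited scaling 0 members passed in P19CL6 against P19, 0 in CL6G26, 1 in CL6G45 and 0 in CL6G52 against P19CL6, 0 among the sublines and 3 among the strains. Over all genes it called 48, 34, 329, 385 and 171 in the 5 comparisons, against 588, 164, 1786, 1747 and 419. It moved the median of all genes by 0.13 in CL6G26, 0.12 in CL6G45 and 0.11 in CL6G52. The share of calls that were lower became 18.8% in P19CL6 against P19, 33.2% in CL6G45 and 21.1% in CL6G52, against 42.3%, 50.6% and 56.6%. In P19CL6 against P19, where 1 member passed, 2 passed with signals raised to the floor, 0 in a fit of only the strains compared, 2 without P19 replicates 4 and 5 and 0 without P19CL6 replicates 1 and 2; all genes then gave 0, 2588 and 10 calls in the last 3. In CL6G26 (1 passed), 2 passed with trimmed mean scaling, 0 with no filter, 3 with signals raised to the floor, 2 with the mean of probe sets, 0 with no trend, 3 with only the strains compared and 2 without P19CL6 replicates 1 and 2. In CL6G52 (1 passed), 3 passed without P19CL6 replicates 1 and 2, and among the sublines (3 passed) 5 passed with the mean of probe sets. The cause was not tested, beyond the smaller number of arrays where arrays were left out. Leaving out each array in turn gave 0 to 1 members in P19CL6 against P19, 0 to 2 in CL6G26, 3 to 4 in CL6G36, 2 to 3 in CL6G45, 1 to 2 in CL6G52, 2 to 5 among the sublines and 6 to 8 among the strains. With the replicate number as a block, 44 of 45 member results kept their call; Smad7 in CL6G36 passed at -0.32 (limma adjusted p = 0.0359). Bmp4, Id2 and Msx2 lie near or under the floor, which limits what their signals can show.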
